A study of Mus musculus with 8 samples.

Results

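The data concern 10 macrophage genes of complement, lysosome and immune-receptor function in mouse skin tumours in which the transcription factor NR2F2 was overexpressed or lost. The genes are C1qa, C1qb, C1qc, Lyz2, Ctss, Cd68, Tyrobp, Fcgr3, Csf1r and Ms4a6d. They are 10 of the 13939 genes tested and are read by 12 of the 28898 probe sets that carry a single gene symbol. They were chosen because most of them were higher in NR2F2-overexpressing papilloma than in control papilloma on these same arrays. Values of that comparison are therefore given as a description without a test, while the comparison in carcinoma was tested.

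Tumour cells were isolated by flow cytometry on the epithelial surface protein Epcam, and their RNA was profiled on 8 Affymetrix mouse strip arrays, 2 for each of 4 groups. GOF papilloma (genotype NR2F2 GOF) came from papillomas with NR2F2 overexpression, and control papilloma from papillomas with genotype NR2F2 WT. LOF carcinoma came from skin squamous cell carcinomas of K5CreER;NR2F2fl/fl mice, in which a tamoxifen-activated Cre recombinase under the keratin 5 promoter acts on floxed Nr2f2. Control carcinoma (NR2F2 WT) came from tumours of Cre- animals. Papilloma is a benign epidermal tumour and squamous cell carcinoma a malignant one. The labels used here do not give the promoter behind the overexpression, the strain or age of the mice, how the tumours were induced, or whether each array stands for an animal of its own. P-values therefore measure only the spread between these arrays, which may be technical.

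C1qa, C1qb and C1qc encode the 3 chains of C1q, the recognition component of the classical complement pathway, which in most tissues is made by macrophages. Lysozyme M (Lyz2), cathepsin S (Ctss) and CD68 (Cd68) belong to the granules and lysosomes with which macrophages digest what they engulf. Tyrobp (DAP12) is an adaptor that passes on signals of immune receptors through an ITAM motif, Fcgr3 is an activating receptor for IgG, Csf1r is the receptor for the survival factors CSF1 and IL-34, and Ms4a6d is a 4-pass membrane protein of myeloid cells. In skin, macrophages lie mainly in the dermis and in tumour stroma, outside the Epcam-expressing epithelium.

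RefSeq promoter sequences of mouse assembly GRCm38.p6 were at hand for 6 of the 10 genes and are shown so that the sequences upstream of the C1q, lysosomal and Fc receptor genes can be compared. Each run gives the 250 bases before the annotated start, on the strand of the gene. Capitals mark GAGGAA or its reverse complement TTCCTC, a core recognised by the myeloid factor PU.1, and the C/EBP-type motif TTGCNNAA on either strand.
C1qb, chr4:136886201-136886450, minus strand: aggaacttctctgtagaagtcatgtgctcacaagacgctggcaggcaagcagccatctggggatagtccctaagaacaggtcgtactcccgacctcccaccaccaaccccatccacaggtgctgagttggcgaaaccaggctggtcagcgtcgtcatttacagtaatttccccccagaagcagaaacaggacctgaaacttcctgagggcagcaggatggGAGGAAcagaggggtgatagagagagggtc
C1qc, chr4:136892915-136893164, minus strand: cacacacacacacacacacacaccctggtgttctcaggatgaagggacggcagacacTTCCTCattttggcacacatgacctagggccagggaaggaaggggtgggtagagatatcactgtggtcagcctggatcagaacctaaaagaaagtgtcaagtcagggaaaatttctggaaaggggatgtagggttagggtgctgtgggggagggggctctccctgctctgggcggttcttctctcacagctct
Lyz2, chr10:117282273-117282522, minus strand: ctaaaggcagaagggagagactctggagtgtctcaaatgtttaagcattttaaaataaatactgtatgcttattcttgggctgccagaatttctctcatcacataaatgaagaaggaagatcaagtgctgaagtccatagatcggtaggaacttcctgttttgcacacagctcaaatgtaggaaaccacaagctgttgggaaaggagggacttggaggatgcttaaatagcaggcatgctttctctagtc
Ctss, chr3:95526536-95526785, plus strand: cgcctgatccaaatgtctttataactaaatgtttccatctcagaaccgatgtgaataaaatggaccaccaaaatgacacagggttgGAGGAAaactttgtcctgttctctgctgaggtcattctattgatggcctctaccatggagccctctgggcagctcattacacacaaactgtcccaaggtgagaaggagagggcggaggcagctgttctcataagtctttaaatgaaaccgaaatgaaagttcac
Cd68, chr11:69666171-69666420, minus strand: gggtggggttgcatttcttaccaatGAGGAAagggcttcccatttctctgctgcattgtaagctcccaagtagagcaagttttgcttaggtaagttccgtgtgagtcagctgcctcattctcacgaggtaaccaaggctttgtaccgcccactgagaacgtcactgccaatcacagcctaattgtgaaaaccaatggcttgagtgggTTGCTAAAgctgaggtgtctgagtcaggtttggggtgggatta
Fcgr3, the first of 2 annotated starts, chr1:171059404-171059653, minus strand: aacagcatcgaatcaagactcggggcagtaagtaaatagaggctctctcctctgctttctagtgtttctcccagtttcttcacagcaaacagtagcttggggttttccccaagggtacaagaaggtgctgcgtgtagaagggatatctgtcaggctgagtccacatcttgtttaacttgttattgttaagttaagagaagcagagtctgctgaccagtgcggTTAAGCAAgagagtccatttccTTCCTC
GAGGAA was found in 5 of these 6 genes (C1qb, C1qc, Ctss, Cd68 and Fcgr3), and in 23.1% of 27025 promoter windows of the same length. In C1qb it begins 30 bases before the start, in Ctss 164 and in Cd68 225. TTGCNNAA was found in Cd68 and Fcgr3, against 9.55% of all windows. CACGTG, the E-box read by the lysosomal regulator TFEB, was found in 0 of the 6 windows and in 6.05% of all windows. A match says that these letters are present, not that a factor binds there.

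The authors deposited log2 values normalized with RMA, which combines the perfect-match probes of a transcript into 1 value per probe set. Nr2f2, the targeted gene, read 11.43 and 11.47 on the log2 scale in GOF papilloma, against 2.80 and 2.55 in control papilloma (adjusted p = 5.31e-06 in limma, a linear model with a spread shared across genes). It read 4.77 and 4.996 in LOF carcinoma, against 7.93 and 8.14 in control carcinoma (limma adjusted p = 0.00475). The papilloma arrays (medians 3.12 to 3.16) and the carcinoma arrays (medians 5.08 to 5.15) were on different scales, so no level was compared between tumour types. Background, set per array by the brightest of the 44 control probe sets that target no mouse transcript, was 3.09 to 3.33 on papilloma and 4.95 to 5.01 on carcinoma arrays.

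In papilloma, 9 of the 10 macrophage genes read higher on both GOF arrays than on both control arrays, and Csf1r did not. This ordering held for 27.3% of all genes tested, and the genes had been chosen on this contrast. The log2 difference of GOF minus control ran from 0.080 for Csf1r to 5.56 for Lyz2, with a median of 3.64, against a median of 0.022 over all genes tested. At least 1.5-fold higher values in all 4 array pairs were found for 8 of the 10, and for 3.90% of all genes. No gene lay close to this level: the nearest outside was Fcgr3, with a smallest pair difference of 0.30 on the log2 scale, and the nearest inside was C1qa, with 1.42. All 10 genes passed the filter on dim probe sets, which uses all 8 arrays. On the papilloma arrays alone Csf1r and Fcgr3 would not have passed it.

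The C1q genes were near background in control papilloma and above it on both GOF arrays. C1qa read 4.91 and 6.07 in GOF papilloma and 3.49 and 3.44 in control papilloma, a mean difference of 2.03 or 4.08-fold. C1qb read 5.31 and 7.19 in GOF papilloma, against 2.75 and 2.72 in control papilloma, where it was below background, so that the difference was at least 8.71-fold. C1qc read 6.72 and 7.95 in GOF papilloma and 3.41 and 3.33 in control papilloma, a difference of 3.96 or 15.6-fold. For each chain the second GOF array was the higher, by 1.16 (C1qa), 1.87 (C1qb) and 1.22 (C1qc), while the second control array differed from the first by -0.055 (C1qa), -0.037 (C1qb) and -0.081 (C1qc).

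Among the genes of the lysosome, Lyz2, which digests bacterial cell walls, read 7.85 and 8.54 in GOF papilloma, against 2.98 and 2.29 in control papilloma. Its group means were 8.19 ± 0.48 in GOF and 2.63 ± 0.49 in control papilloma (SD, n = 2), and as the control arrays were below background the difference is at least 33.6-fold. The Lyz2 probe set belongs to a class (suffix _x_at) whose probes can also match related transcripts, such as those of other lysozyme genes. Lyz1, on a probe set of its own, read 3.24 and 3.09 in GOF papilloma and 3.37 and 3.19 in control papilloma. A share of other transcripts in the Lyz2 value was not tested. Ctss, a cysteine protease that trims the invariant chain of MHC class II, read 6.82 and 8.05 in GOF papilloma, against 2.99 and 2.80, below background, in control papilloma, a difference of at least 19.8-fold. Cd68, a glycosylated lysosomal membrane protein used as a macrophage marker, read 5.67 and 6.39 in GOF papilloma and 3.76 and 3.51 in control papilloma, a difference of 2.40 or 5.26-fold. Cd68 was above background on all 4 papilloma arrays, whereas Lyz2 and Ctss were above it on the GOF arrays alone.

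Tyrobp and Fcgr3, both members of immune-receptor signalling, differed in size of effect. Tyrobp read 6.45 and 7.45 in GOF papilloma and 3.13 and 3.23 in control papilloma, a difference of 3.77 or 13.6-fold. Relative to background the control papilloma values of Tyrobp were -0.03 and 0.14, so this fold depends on values at the floor. Fcgr3 read 3.54 and 4.20 in GOF papilloma and 3.05 and 3.24 in control papilloma, a difference of 0.72 or 1.65-fold, and no papilloma array was more than 1.06 above background. Csf1r read 3.75 and 3.502 in GOF papilloma and 3.47 and 3.62 in control papilloma. The Csf1r groups overlapped, with a difference of 0.080. Its level was 0.31 to 0.53 above background on all 4 papilloma arrays, with no separation of the groups.

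Ms4a6d was read by 3 probe sets, which disagreed in size. The brightest, which stands for the gene and has probes shared between transcripts (suffix _s_at), read 6.42 and 7.44 in GOF papilloma and 2.16 and 2.84 in control papilloma, a difference of 4.43 or at least 14.0-fold. A second read 3.02 and 3.57 in GOF papilloma, against 2.60 and 2.51 in control papilloma, at least 1.12-fold higher. The third was below background on all 8 arrays. The direction was shared by the first 2, but the size of the Ms4a6d difference rests on 1 probe set.

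**Figure D1:**
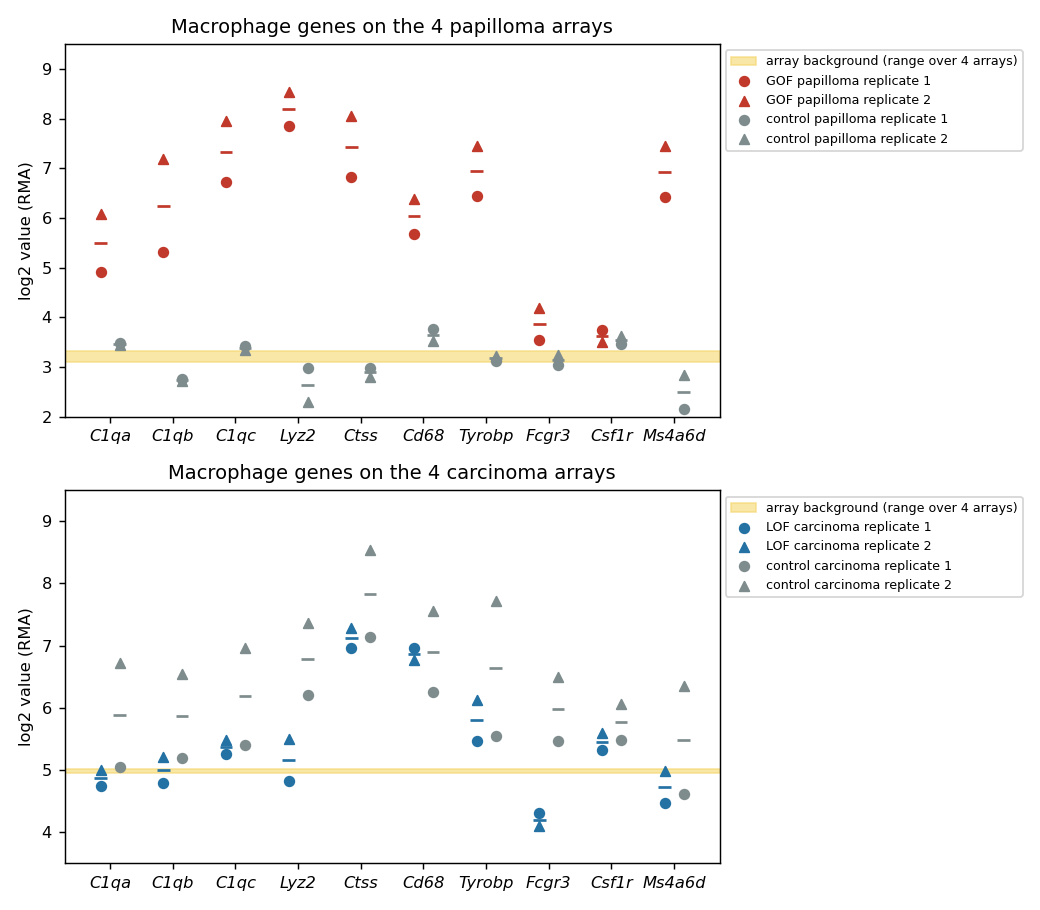
The log2 value of each gene is plotted for each array, with papilloma above and carcinoma below; circles are replicate 1, triangles replicate 2, short lines group means and the yellow band the range of array background. In papilloma all genes but Csf1r lie higher on both GOF arrays than on both control arrays, and in carcinoma control replicate 2 lies above both LOF arrays for all 10 genes.

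The 2 GOF arrays were not equal for these genes. Replicate 2 was higher than replicate 1 for 9 of the 10, all 9 by over 0.5, with a median of 1.01. Over all genes tested the median was -0.050, and 3.67% were higher by over 0.5. Csf1r went the other way, by -0.25. In control papilloma the corresponding median was -0.046, with 4 of 10 genes higher on replicate 2. The median difference between GOF and control was 2.92 without GOF replicate 2 and 4.36 without GOF replicate 1.

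**Figure D2:**
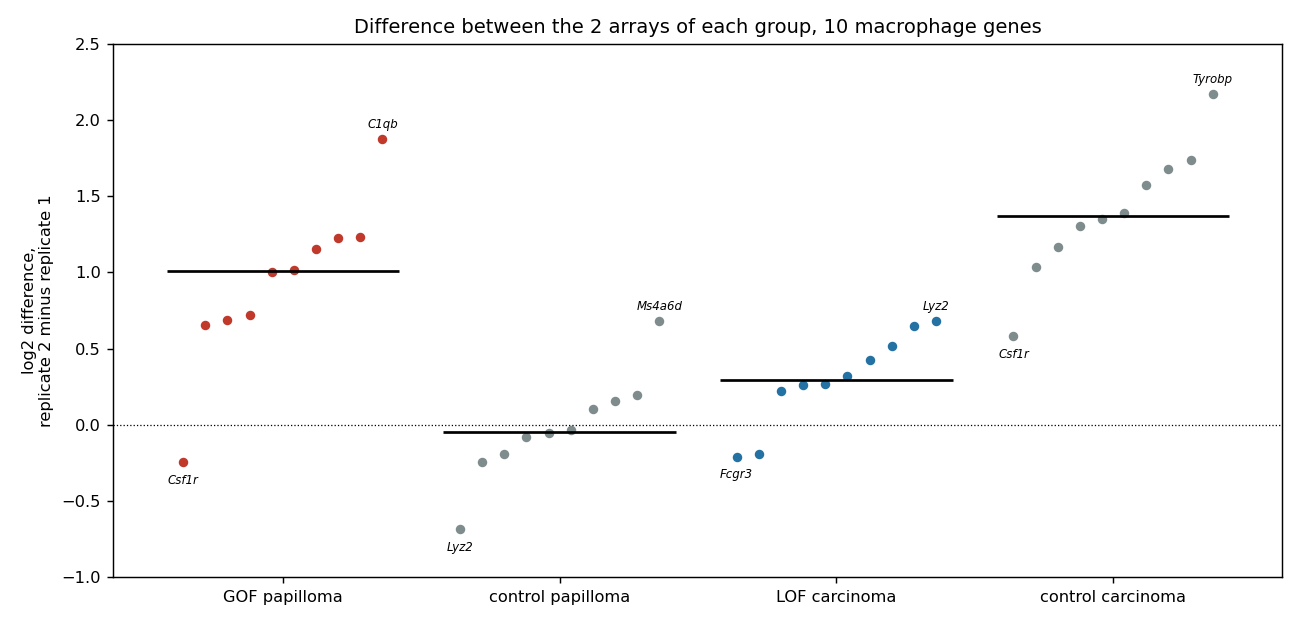
Each point is 1 of the 10 genes, plotted as the log2 value on replicate 2 minus that on replicate 1 in each of the 4 groups, with the median as a line and the lowest and highest gene named. The genes lie mostly above 0 in GOF papilloma (median 1.01) and all above 0 in control carcinoma (median 1.37), and around 0 in control papilloma (median -0.046).

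In carcinoma, where NR2F2 was lost, none of the 10 genes passed the test between LOF and control. All 10 had a lower mean in LOF carcinoma, with log2 differences from -1.79 (Fcgr3) to -0.028 (Cd68) and a median of -0.82, against a median of 0.0061 over all genes tested. The limma fit over all genes gave an adjusted p under 0.05 for 0 of the 10 and for 2 of the 13939 genes (0.0143%). At an unadjusted p under 0.05 it gave Fcgr3 and Lyz2, 2 of the 10, against 13.8% of all genes in either direction and 5.44% in the lower direction. Both LOF arrays lay below both control arrays for C1qa, Lyz2 and Fcgr3, 3 of the 10, against 19.1% of all genes.

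Fcgr3 read 4.30 and 4.09 in LOF carcinoma, below background, and 5.46 and 6.499 in control carcinoma. Its mean was 4.19 ± 0.15 in LOF and 5.98 ± 0.73 in control carcinoma (SD, n = 2), a difference of -1.79 (SE 0.36, limma adjusted p = 0.141), or at least 2.01-fold lower. The gap between the groups exceeded the gap between the arrays of either group. Without control carcinoma replicate 1 the difference was -2.31 and limma's adjusted p 0.0401, the lone setting of 18 tried in which any of the 10 genes passed in carcinoma.

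Lyz2 read 4.82 and 5.50 in LOF carcinoma and 6.20 and 7.36 in control carcinoma. The difference was -1.62 (SE 0.47, limma adjusted p = 0.225), or 3.07-fold lower, with no overlap. For the other 8 genes limma's adjusted p ran from 0.507 to 0.994.

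Of the C1q genes, C1qa read 4.75 and 5.003 in LOF carcinoma and 5.04 and 6.72 in control carcinoma. C1qb read 4.78 and 5.20 in LOF carcinoma and 5.19 and 6.54 in control carcinoma. C1qc read 5.26 and 5.48 in LOF carcinoma and 5.39 and 6.97 in control carcinoma. In each case the first control array lay close to the LOF arrays and the second stood above them. The differences were -1.01 (SE 0.57) for C1qa, -0.87 (SE 0.65) for C1qb and -0.81 (SE 0.56) for C1qc. Ctss read 6.95 and 7.28 in LOF carcinoma and 7.14 and 8.53 in control carcinoma, a difference of -0.72 (SE 0.53). Cd68 read 6.97 and 6.77 in LOF carcinoma, between the 2 control carcinoma values of 6.24 and 7.55, with a difference of -0.028 (SE 0.43). It turned to 0.0051 when arrays were centred on their medians, so Cd68 has no settled direction.

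Tyrobp read 5.47 and 6.12 in LOF carcinoma and 5.55 and 7.72 in control carcinoma, a difference of -0.84 (SE 0.69). Csf1r read 5.32 and 5.58 in LOF carcinoma and 5.48 and 6.07 in control carcinoma, a difference of -0.32 (SE 0.22). The brightest Ms4a6d probe set read 4.47 and 4.99 in LOF carcinoma and 4.62 and 6.35 in control carcinoma, a difference of -0.76 (SE 0.61). For all 3 the LOF values overlapped the control values.

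Set against each control carcinoma array alone, the LOF means gave different pictures. Against control replicate 1, 7 of the 10 genes were lower in LOF, from -1.27 (Fcgr3) to 0.62 (Cd68), with a median of -0.030. Against control replicate 2, all 10 were lower, from -2.31 (Fcgr3) to -0.62 (Csf1r), with a median of -1.61. Cd68, Tyrobp and Ms4a6d changed sign between the 2 controls. The control arrays differed from each other more than the LOF arrays did, with a median difference of replicate 2 minus 1 of 0.30 in LOF carcinoma and 1.37 in control carcinoma. All 10 genes were over 0.5 higher on control carcinoma replicate 2 than on replicate 1, against 9.76% of all genes tested.

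**Figure D3:**
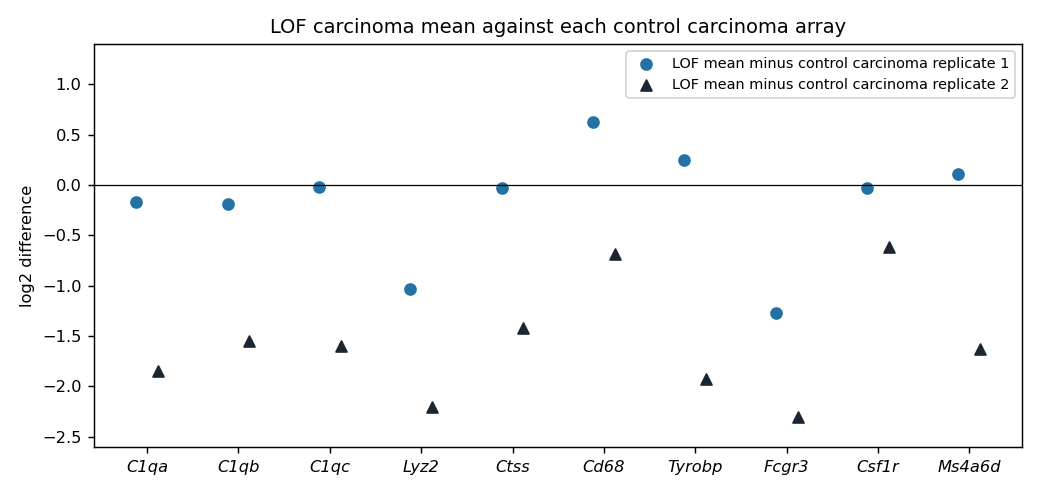
The mean of the 2 LOF carcinoma arrays minus each control carcinoma array is plotted on the log2 scale for each gene, circles against control replicate 1 and triangles against control replicate 2. The circles lie near 0 except for Lyz2 (-1.04), Fcgr3 (-1.27) and Cd68 (0.62), and the triangles lie between -2.31 and -0.62.

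The 10 genes followed each other across the 8 arrays to different degrees. With each array centred on the mean of its tumour type, Pearson's r of a gene with the mean of the other 9 was 0.996 for C1qc, 0.992 for Tyrobp, 0.986 for Ctss, 0.985 for C1qb and 0.984 for Ms4a6d. It was 0.969 for Lyz2, 0.957 for C1qa and 0.953 for Cd68, and lower for Fcgr3 (0.620) and Csf1r (0.404). These values describe 8 arrays that share the group difference the genes were chosen on. By the same measure, the 5 other genes most like the mean of the 10 were H2-T24 (0.997), Cd53 (0.996), H2-Ab1 (0.995), Cd93 (0.994) and 1700034E13Rik (0.993). 1700034E13Rik was below background on all arrays but GOF papilloma replicate 2. It read 3.04 and 3.15 in GOF papilloma and 2.72 and 2.73 in control papilloma. H2-T24 is an MHC class I-like gene, H2-Ab1 a chain of MHC class II, Cd53 a leukocyte tetraspanin, and Cd93 a surface protein of endothelial and myeloid cells.

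Other genes of the same pathways were read from 16 lists of related genes and cell type markers, which held 192 distinct tested genes. The lists were chosen with earlier results of these data known, so their counts beside the share of all genes are a description. In GOF papilloma 11 of the 192 rose and 4 fell (limma adjusted p under 0.05), against 1.21% of all genes tested in either direction (0.760% higher and 0.452% lower). At an unadjusted limma p under 0.05 the share of all genes was 16.4%. Leaving out GOF replicate 1 or 2 left 0 of the 192 called by limma (64 and 46 at an unadjusted p under 0.05), leaving out control papilloma replicate 1 or 2 left 1, and leaving out LOF carcinoma replicate 1 or 2 left 3, while 29 were called without control carcinoma replicate 1 or 2. In LOF carcinoma 0 of the 192 were called by limma, with 1 higher and 23 lower at an unadjusted p under 0.05, against 13.8% of all genes in either direction and 5.44% in the lower one. Under the 18 alternatives 0 were called in LOF carcinoma, except 1 (Cd55) with a trended and robust variance prior and 8 without control carcinoma replicate 1.

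Other complement genes were read beside C1q, whose own values had been chosen on this contrast. Of 14 tested genes, 0 passed in GOF papilloma (5 higher and 1 lower at an unadjusted limma p under 0.05), and their median log2 difference was 0.048. The receptor for C5a, C5ar1, had the highest value, with 6.39 and 7.31 in GOF papilloma and 3.64 and 3.05 in control papilloma (difference 3.503, SE 0.80, limma adjusted p = 0.0993). The receptor for C3a, C3ar1, read 4.67 and 6.25 in GOF papilloma and 3.06 and 3.27 in control papilloma, a difference of 2.29 on the brightest of 3 probe sets, which ran from 0.40 to 2.29. Clusterin (Clu), a fluid-phase inhibitor of the terminal complex, had the lowest, with 7.66 and 8.02 in GOF papilloma and 9.56 and 8.89 in control papilloma (difference -1.39, SE 0.37, limma adjusted p = 0.134). In LOF carcinoma the median of the 14 was -0.45, and the lowest value was that of Cd55, a membrane inhibitor of complement convertases, at -2.63 (SE 0.34, limma adjusted p = 0.110). Cd55 read 4.10 and 5.10 in LOF carcinoma and 7.02 and 7.43 in control carcinoma.

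By their medians, genes of the general lysosome were near level in GOF papilloma. Of 14 tested lysosomal protease genes and inhibitors 0 passed (2 higher at an unadjusted limma p under 0.05), with a median of 0.090, and of 24 other lysosomal genes 0 passed (5 higher, 2 lower), with a median of 0.034. Both GOF arrays lay above both controls for 5 of the 14 and 8 of the 24, against 27.3% of all genes. They lay below both for 4 and 6, against 2965 of 13939 genes. Hexa (1.29) and Man2b1 (0.80) were among the higher ones and did not pass (limma adjusted p = 0.210 and 0.126). Cathepsins B and D, found in the lysosomes of most cells, were near level and were picked after their values were seen. Ctsb read 10.90 and 10.97 in GOF papilloma and 10.97 and 10.91 in control papilloma. Differences of its 4 probe sets ran from -0.43 to 0.20. Ctsd read 9.40 and 9.31 in GOF papilloma and 9.56 and 9.15 in control papilloma. For both genes the groups overlapped, and the sign of the difference changed with the centring of the arrays. Ctsz, a carboxypeptidase, had the highest value of the proteases, with 8.16 and 8.77 in GOF papilloma and 7.14 and 6.86 in control papilloma (difference 1.47, limma adjusted p = 0.139), and Ctsf the lowest at -0.61. Among the other lysosomal genes the values ran from -0.75 for the acid phosphatase gene Acp2 to 1.51 for Laptm5, a lysosomal protein of blood cells. The 2 probe sets of Acp2 gave -0.75 and 0.23, and those of Laptm5 0.48 and 1.51. The protease median in LOF carcinoma was -0.30, with 0 of 14 genes above 0, and that of the other lysosomal genes -0.15. Ctsc (-1.21) and Hexa (-1.74), the α chain of β-hexosaminidase, were lowest there, and neither passed (limma adjusted p = 0.254 and 0.183).

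**Figure D4:**
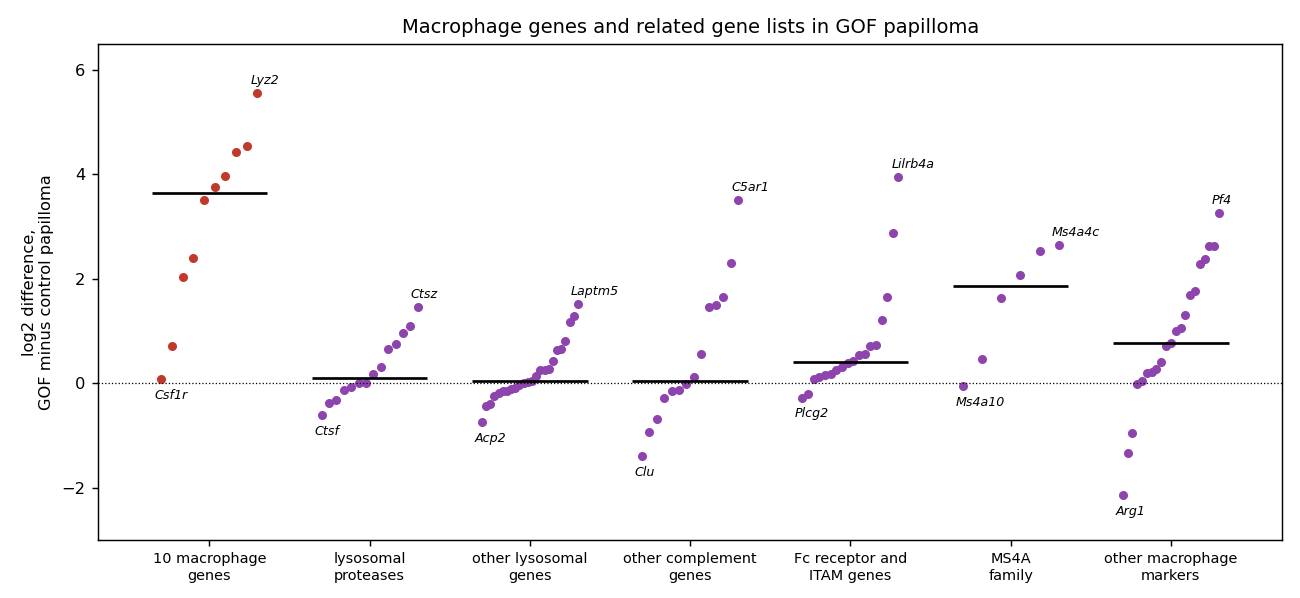
Log2 differences of GOF minus control papilloma are plotted for the 10 macrophage genes (red) and for 6 lists of related genes (purple), each gene as a point, the median as a line, and the lowest and highest gene named. The median is 3.64 for the 10 genes, which were chosen on this contrast, and 0.090, 0.034, 0.048, 0.41, 1.85 and 0.77 for the lists from left to right.

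Around Tyrobp and Fcgr3, 18 other genes of Fc receptors and ITAM signalling had a median of 0.41 in GOF papilloma, and 0 passed (5 higher at an unadjusted limma p under 0.05). The inhibitory receptor gene Lilrb4a read 6.12 and 7.57 in GOF papilloma, against 3.03 and 2.76, below background, in control papilloma, at least 13.2-fold higher (limma adjusted p = 0.0636). Fcer1g, the γ chain shared by activating Fc receptors, read 5.91 and 7.29 in GOF papilloma and 3.48 and 3.96 in control papilloma, a difference of 2.88 (limma adjusted p = 0.111). Plcg2, a phospholipase downstream of these receptors, was lowest at -0.28. The median of the 18 in LOF carcinoma was -0.33 and the lowest value that of the β-glucan receptor gene Clec7a at -1.30.

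Of 11 MS4A family genes with probe sets besides Ms4a6d, 6 were tested, and the filter on dim probe sets left out the rest. Of those left out, Ms4a1, Ms4a2, Ms4a4b and Ms4a8a were below background on every array. Both GOF arrays lay above both controls for 5 of the 6, against 27.3% of all genes. Ms4a4d read 5.91 and 6.905 in GOF papilloma and 5.89 and 3.65 in control papilloma, a narrow margin. Ms4a15 read 3.55 and 3.06 in GOF papilloma, the second below background, and 2.76 and 2.94 in control papilloma. The median of the 6 was 1.85, and 0 passed (3 at an unadjusted limma p under 0.05). Ms4a4c read 5.84 and 7.02 in GOF papilloma and 3.35 and 4.22 in control papilloma, a difference of 2.64 (limma adjusted p = 0.0522). Ms4a7 and Ms4a6b were 2.54 and 2.07 higher in GOF papilloma, each on the brighter of 2 probe sets and each below background in both controls, and the dimmer probe set gave 0.061 and 0.067. Neither passed (limma adjusted p = 0.132 and 0.0717).

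Beside Csf1r, the 13 tested genes of the CSF1 axis and of macrophage transcription factors had a median of 0.025 in GOF papilloma, and 0 passed (2 higher and 1 lower at an unadjusted limma p under 0.05). Csf2rb, a receptor chain for GM-CSF, was highest at 1.60 and Runx1 lowest at -0.78, although the 6 probe sets of Runx1 ran from -1.65 to 0.067. Spi1, which encodes PU.1, read 4.01 and 4.54 in GOF papilloma and 3.74 and 3.72 in control papilloma (difference 0.54, limma adjusted p = 0.353). Irf8, a myeloid transcription factor, read 3.92 and 4.08 in GOF papilloma, against 2.94 and 3.06, below background, in control papilloma (at least 1.83-fold higher, limma adjusted p = 0.0655). In LOF carcinoma the median was -0.39 and Maf, a macrophage transcription factor, was lowest at -0.97.

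Markers of macrophages outside the 10 genes gave a mixed picture. Of 21 tested in GOF papilloma, 0 passed (7 higher and 3 lower at an unadjusted limma p under 0.05), 15 had both GOF arrays above both controls, against 27.3% of all genes, and the median was 0.77. The platelet factor gene Pf4, also expressed by tissue macrophages, was highest, with 5.50 and 7.20 in GOF papilloma and 2.89 and 3.29 in control papilloma (difference 3.26, limma adjusted p = 0.0717). Arg1, an arginase of alternatively activated macrophages, was lowest, with 3.55 and 3.23 in GOF papilloma and 7.12 and 3.93 in control papilloma (difference -2.14). Adgre1, which encodes F4/80, read 4.24 and 5.46 in GOF papilloma and 3.14 and 3.19 in control papilloma, and the mannose receptor gene Mrc1 read 4.76 and 6.999 in GOF papilloma and 3.67 and 3.32 in control papilloma. The markers Cd163, Ccr2 and Timd4 were below background on all 8 arrays. In LOF carcinoma the median of the 21 was -0.72, with 10 genes below both controls, against 19.1% of all genes. Of the 21, 9 and 10 were above background on the LOF arrays, against 12 on control carcinoma replicate 1 and all 21 on control replicate 2.

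Markers of other cells in the tumour moved in part along with the 10 genes, and their share in these results was not tested. In bulk RNA, more cells of a type cannot be told apart from more RNA per cell. Relative to the control mean, the mean of the 10 genes was 2.63 and 3.57 higher on the GOF arrays. That of 10 pan-leukocyte genes was 1.26 and 1.93 higher, with Srgn (4.41, limma adjusted p = 0.0494) and Lcp1 (3.18, limma adjusted p = 0.0268) past the test. Ptprc, which encodes the leukocyte antigen CD45, read 3.37 and 3.88 in GOF papilloma and 3.07 and 2.74 in control papilloma. The mean of 12 Langerhans and dendritic cell markers was 0.92 and 1.29 higher. It was led by the MHC class II genes H2-Eb1 (3.27), H2-Ab1 (3.23) and H2-Aa (2.08), all past the test. The 3 probe sets of H2-Aa ran from 0.078 to 4.02. H2-Ab1 is also 1 of the 5 genes picked for their likeness to the 10 on these arrays, so its call is not independent of that pattern. Cd207, which encodes the Langerhans cell protein langerin, did not pass the filter on dim probe sets and was not tested. It read 4.06 and 4.42 in GOF papilloma and 3.39 and 3.45 in control papilloma, above background on all 4 papilloma arrays.

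The 13 tested endothelial genes were all higher on both GOF arrays than on both controls, an ordering found for 27.3% of all genes, by 1.64 and 1.81 on average, and 5 passed (Cdh5, Emcn, Plvap, Egfl7 and Flt1). The 5 tested mast cell genes averaged 0.73 and 1.21 higher, with the chymase gene Cma1 (1.34, limma adjusted p = 0.0484) past the test. T and NK cell markers (0.0002 and 0.068), B cell markers (0.036 and 0.078) and neutrophil markers (0.31 and 0.45) lay closer to the controls. Of the 8 tested T and NK cell markers, 0 and 3 were above background on the GOF arrays and 2 and 2 on the control papilloma arrays, and of the 6 B cell markers 0 and 2 on the GOF arrays and 3 and 1 on the control papilloma arrays. Cd3e, Cd3g, Pax5 and Ighm were below background on all 8 arrays, whereas Cd8a and Cd79a were above it on 7 and Cd4 and Cd79b on 6. The 9 fibroblast genes were 0.86 and 1.14 higher, but the 2 control papilloma arrays themselves lay 0.80 above and 0.80 below their mean.

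Keratinocyte genes went the other way. Their mean was 0.63 and 0.71 lower on the GOF arrays, and 4 of 14 fell (Krt15, Epcam, Col17a1 and Lamb3). Epcam, the protein used for the sort, read 9.004 and 8.68 in GOF papilloma and 10.17 and 10.57 in control papilloma (difference -1.53, limma adjusted p = 0.0372). The basal keratins Krt5 and Krt14 differed by 0.031 and 0.014 and did not pass. Keratinocyte RNA was thus visible on all arrays, with Krt5 and Krt14 at least 7.32 above background on each. This does not show what share of the sorted cells were keratinocytes. The fibroblast gene Col1a1 was also above background on all 8 arrays.

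On the carcinoma arrays the same lists set control replicate 2 apart. Relative to the control mean, the LOF arrays lay at -1.02 and -0.73 for the 10 genes, -0.82 and -0.77 for leukocyte, -1.61 and -0.60 for fibroblast, and -0.61 and -0.46 for endothelial genes. Control replicate 2 lay above that mean by 0.70 for the 10 genes, 0.78 for leukocyte, 0.84 for fibroblast and 0.40 for endothelial genes. Control replicate 1 lay at -0.70, -0.78, -0.84 and -0.40, nearer to the LOF arrays than to its fellow control in these lists. Ptprc read 3.42 and 4.27 in LOF carcinoma, against 3.34 and 6.15 in control carcinoma, and was above background on control replicate 2 alone. Itgam, which encodes CD11b, was likewise above background on that array alone, at 5.73.

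**Figure D5:**
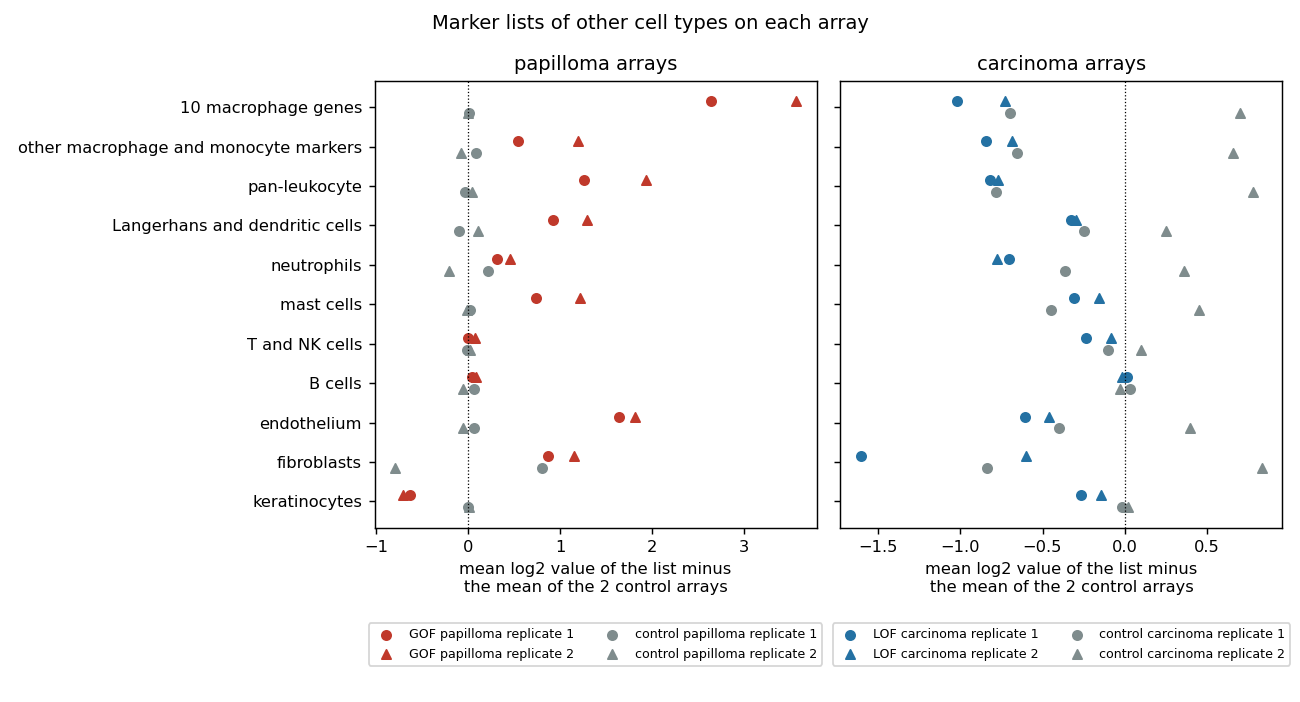
The mean log2 value of the 10 macrophage genes and of each marker list is plotted per array relative to the mean of the 2 control arrays, papilloma on the left and carcinoma on the right. GOF arrays lie right of both controls for the macrophage, leukocyte, dendritic, neutrophil, mast cell, endothelial and fibroblast lists and left of them for keratinocytes. For fibroblasts the margin is narrow (0.86 on GOF replicate 1 against 0.80 on control replicate 1). Control carcinoma replicate 2 lies right of the other 3 carcinoma arrays for every list but B cells.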

How the data were processed

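Expression was measured in Epcam-sorted mouse skin tumour cells on 8 Affymetrix arrays, 2 in each of 4 groups taken from the sample titles. RMA log2 values were deposited by the authors as a single table, per the labels, and the submitters' processing notes name RMA and affy without versions. The 2 tumour types carried different medians and decimals, so they were treated as normalized separately.

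The table held 45141 probe sets, including 104 controls. The platform annotation paired 28898 with 1 gene symbol, 551 with more than 1 and 15588 with no symbol, and 28689 of those with 1 symbol had an Entrez number in RefSeq. Dim probe sets were left out by asking for values over 4.23, the median of the whole table, on 2 or more of the 8 arrays. This level lay above background on papilloma arrays (3.09 to 3.33) and below it on carcinoma arrays (4.95 to 5.01). The filter was therefore stricter for papilloma values. The brightest remaining probe set on average stood for its gene, which gave 13939 genes. The test was limma (version 3.58.1, with R 4.3.3), fitted to all 8 arrays with a mean for each group, leaving 4 residual and 2.67 prior degrees of freedom. P-values were adjusted by Benjamini-Hochberg over all genes, with a threshold of 0.05. The procedure was tested on simulated data. Tables and figures were made in Python 3.11.15. With 2 arrays against 2 an exact permutation p cannot go below 0.333, so none is given. Precision is limited by the number of arrays. A fold against a group with neither array above background is a bound, written "at least", for which background replaced any lower value of that group.

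The 10 genes and the 16 lists were chosen with earlier results of these data known. Besides the 10 genes, the text names list genes past the threshold, the highest and lowest gene of a list, the 5 genes most like the mean of the 10, and Nr2f2, Epcam, Krt5, Krt14 and Ptprc. Not every such gene is printed. Ctsb, Ctsd, C3ar1, Fcer1g, Ms4a7 and Ms4a6b in papilloma, Spi1, Irf8, Adgre1, Mrc1, Cd207, Cd163, Ccr2, Timd4, Itgam, Cd3e, Cd3g, Cd4, Cd8a, Pax5, Ighm, Cd79a, Cd79b, Ms4a6c and C2 were singled out after their values were seen. So were Lyz1, Man2b1, Mertk, Apoe, Ms4a1, Ms4a2, Ms4a4b, Ms4a4d, Ms4a8a and Ms4a15, and Hexa and Fcna in papilloma. The alternatives tried were 3 filters on dim probe sets, the 4 arrays of a tumour type alone, a trended and robust prior, the replicate number as a block, median centring, quantile normalization, the mean of probe sets, probe sets without _s_at and _x_at, and leaving out each array in turn.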

Additional observations from a re-analysis of the deposited data

How the results depend on the processing

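With 2 arrays a group, the number of calls depended on single arrays. Genes called in GOF papilloma numbered 169, and between 1 (without GOF replicate 2) and 298 (without control carcinoma replicate 1) when 1 array was left out. Genes called by limma in LOF carcinoma numbered 2 (1921 at an unadjusted p under 0.05), and 0 to 121 when 1 array was left out (1517 to 2255 unadjusted). They numbered 0 in a fit of the 4 carcinoma arrays alone (1617 unadjusted) and 0 with the mean of probe sets (2072 unadjusted), and 32 with a trended and robust prior. Replicate numbers did not pair the arrays (correlation of same-numbered deviations 0.002 in papilloma and 0.125 in carcinoma). With the replicate block, 3 genes were called in GOF papilloma and 0 in LOF carcinoma (2024 unadjusted), and 0 of the 192 list genes in GOF papilloma (70 unadjusted). The median difference of the macrophage genes in GOF papilloma was 3.64, and ran from 2.92 to 4.36 when 1 array was left out. It was 2.95 over the 8 genes left without _s_at and _x_at probe sets, which drop Lyz2 and Ms4a6d. In LOF carcinoma the median was -0.82, and ran from -1.61 (without control replicate 1) to -0.030 (without control replicate 2) when 1 array was left out. Leaving out 1 array turned the sign of 3 members in LOF carcinoma, whose differences ran from -0.68 to 0.62 for Cd68, -1.92 to 0.25 for Tyrobp and -1.62 to 0.11 for Ms4a6d, and median centring gave 0.0051 for Cd68. In GOF papilloma the sign turned for Csf1r (-0.043 to 0.20) and for 4 named genes that did not pass: Ctsb (-0.036 to 0.0355, and 0.014 with median centring), Ctsd (-0.21 to 0.20, and 0.0097 with median centring), Krt5 (-0.017 to 0.079) and Krt14 (-0.039 to 0.067). The cause was not tested. For single genes among the 10, 175 alternative values in GOF papilloma, where no test applies, kept their direction, and 1 changed sign as given above. The 175 also moved by less than the SD between replicates, but most could hardly do otherwise. Changing the filter, the prior or the block left the difference of a gene as it was. Leaving out 1 of 2 arrays moves a group mean by less than the SD of that group. C1qb still read 2.57 without GOF papilloma replicate 2 and 4.45 without GOF papilloma replicate 1. In LOF carcinoma 170 kept their direction and side of the threshold, 5 changed sign, and 1 (Fcgr3 without control carcinoma replicate 1) passed the threshold. C1qa and Ms4a6d were left out of the fit in papilloma and in carcinoma under the filter within each tumour type.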

Other observations

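Further list genes in LOF carcinoma were the highest or lowest of their lists, and none of the 3 given here passed the test. Fcna, a ficolin of macrophages that starts the lectin pathway of complement, was the highest complement gene. It read 5.76 and 6.67 in LOF carcinoma, against 4.93 and 4.74, below background, in control carcinoma (at least 2.36-fold higher, limma adjusted p = 0.166). Fcna was also higher in GOF papilloma, with 4.98 and 5.07, against 3.66 and 3.10 in control papilloma (difference 1.64, limma adjusted p = 0.0698). Ltf, which encodes the iron-binding protein lactoferrin, read 7.72 and 8.56 in LOF carcinoma and 9.63 and 11.04 in control carcinoma (difference -2.20, SE 0.47, limma adjusted p = 0.149). Arg1 read 9.26 and 9.04 in LOF carcinoma and 11.10 and 11.45 in control carcinoma (difference -2.12, SE 0.89, limma adjusted p = 0.364). Arg1 was thus lower on both arrays in LOF carcinoma and also lower in GOF papilloma, where the 2 control arrays read 7.12 and 3.93 and the difference rested on the first of them.

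Of the 5 genes whose pattern was most like that of the 10, H2-T24, Cd53 and Cd93 had values of the following size. H2-T24 read 5.997 and 6.49 in GOF papilloma and 4.82 and 4.82 in control papilloma, a difference of 1.43. The brighter of 2 Cd53 probe sets read 6.28 and 7.46 in GOF papilloma, against 3.07 and 2.95, below background, in control papilloma, at least 13.4-fold higher, while the other gave a log2 difference of -0.053. Cd93 read 6.05 and 6.62 in GOF papilloma and 3.26 and 2.92 in control papilloma, a difference of 3.24. As these genes were chosen for their pattern over all 8 arrays, no test is given. In LOF carcinoma their differences were -0.35 (H2-T24), -1.48 (Cd53) and -0.75 (Cd93).

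Ms4a6c, the neighbour of Ms4a6d by name, and C2 were left out of the test by the filter on dim probe sets. On 1 of its 2 probe sets Ms4a6c read 3.59 and 3.94 in GOF papilloma, against 2.62 and 2.59, below background, in control papilloma. The complement gene C2 read 3.47 and 4.02 in GOF papilloma and 3.11 and 2.82, below background, in control papilloma.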
